A study of Bos taurus with 147 samples.

Results

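AUTS2, C5H12orf57, TXNL4A, TBCA, POLE4 and GABARAPL2 were examined for the way in which their transcripts changed in the adrenal cortex of cattle over the years of slaughter, by a gradual drift or by a step between neighbouring classes. The 6 genes were found by their symbols in the platform annotation among 10986 transcripts, and for a symbol with several transcripts the one with the highest mean was taken. They had been chosen because their signals differed most between years and between classes of year and season in these same arrays. The differences over time are therefore given as a description, without a test, and only the relation to age within classes was tested for the 6 genes. AUTS2 had the lower signals in the later years, and the other 5 genes had the higher ones. By class, the lowest and the highest mean of a gene lay between 1.5-fold (TXNL4A) and 2.57-fold (C5H12orf57) apart.

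The material was adrenal cortex from 145 F2 cows of a cross between Charolais sires and German Holstein cows, with 1 array per cow and no experimental treatment. All cows were slaughtered at the same stage of the second lactation, at an age of 1127 to 1774 days, and were kept under the same housing and feeding. They fell into 25 classes of year and season, from Summer2004 to autumn2011 (named here as in the labels), with 2 to 13 cows each, a winter being counted for the year in which it began. The cows came from families related through sires and dams, the pedigree was not analysed here, and the errors below treat the cows as independent. Season and year are known only as the time of slaughter, and the time at which RNA was extracted or hybridised is not given in the sources used here, so that these cannot be told apart from the year.

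Signals were RMA values on the log2 scale, on which a difference of 1 is a doubling. Levels of different probes cannot be set against each other, and all comparisons below were made within a transcript. The tissue label was checked by the presence of marker genes, whose levels are not ranked. Of 14 genes of the adrenal cortex 9 were measured, among them HSD3B1 of steroid synthesis (mean 13.85) and the lipoprotein receptor SCARB1 (13.30). A linear slope on year, fitted in limma with season and age in the model and the class as a random block, passed an adjusted p of 0.05 in 25.7% of all transcripts rising and in 19.2% falling. The block correlation was estimated at -0.015, so the block did not widen the errors. The errors and calls of the slopes on year thus rest on 145 cows, although time varied only between 25 classes. Of the cortex markers CYP11A1, which opens steroid synthesis, rose by 0.01 log2 units per year (SE 0.0042, adjusted p = 0.00292) and its electron donor FDX1 by 0.02 (SE 0.0056, adjusted p = 0.00242), while SCARB1 fell by 0.0082 (SE 0.0035, adjusted p = 0.0456). Under 11 of 16 alternatives no gene of the cortex list fell. Medulla markers were measurable as well (7 of 10 genes, CHGA at 11.38 and CHGB at 10.91), although cortex and medulla had been separated. The mean over the medulla list was 6.83, 9.49 and 11.18 (lowest, median and highest cow) in the 85 cows before Spring2009, and 7.37, 9.50 and 11.39 in the 60 cows from then on, and none of the 7 genes had a slope on year past the threshold. Of 5 measured endothelial genes, among them EMCN (10.26) and PECAM1 (9.86), PECAM1 rose (adjusted p = 0.0456), and under 10 of 16 alternatives no gene of this list rose. Of 4 macrophage genes, among them CSF1R (8.09) and CD14 (7.85), AIF1 rose (adjusted p = 0.00335). Of 3 fibroblast genes, among them DCN (12.08) and LUM (9.78), PDGFRA fell (adjusted p = 0.0134). None of 3 lymphocyte genes passed the test (CD3E 7.79, CD3D 6.90), and no adipocyte or red blood cell gene of the lists was measured. The part of cell composition in the differences below was not tested, and in bulk tissue fewer cells of a type and less RNA per cell cannot be told apart.

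The 6 genes act in different parts of the cell. AUTS2 is a nuclear regulator of transcription that joins a variant form of Polycomb repressive complex 1 and is known from work on brain development. TXNL4A belongs to the U5 ribonucleoprotein of the spliceosome, which removes introns from new transcripts. TBCA is a chaperone that holds beta-tubulin during the folding of tubulin dimers. POLE4 is a small histone-fold subunit of DNA polymerase epsilon, which copies the leading strand, and GABARAPL2 is a ubiquitin-like protein of the ATG8 family that is attached to membranes in autophagy and in transport within the Golgi. C5H12orf57 is the cattle counterpart of human C12orf57, a small protein about which little is known.

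The cows are split below at Spring2009, which is also where a single step described most of the 6 genes best in these same arrays. The counts on both sides of this split therefore describe the genes and do not test them. Such counts were not made over all transcripts. AUTS2 was the only one of the 6 genes whose signal was lower later. Its signals were 7.75, 8.76 and 9.28 (lowest, median and highest) in the 85 cows before Spring2009, and 7.59, 8.13 and 9.31 in the 60 cows from Spring2009 on. The means differed by -0.54, or 1.45-fold. The ranges overlapped over most of their width, since 56 of the 60 later cows were below the median of the earlier ones but only 4 were below all of them. The highest class mean was that of Summer2004, at 9.01, with its 3 cows at 8.89, 9.05 and 9.08. The lowest was that of autumn2009, at 8.02, and the last class, autumn2011, was still low, with its 2 cows at 7.92 and 8.16. Of the 10 class means from Spring2009 on, 8 were below every earlier class mean. The remaining 2 classes were Spring2009, which held the highest later mean at 8.65, and winter2009/2010, in which the 4 cows had 8.00, 8.10, 8.61 and 9.31.

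The 5 other genes ran the opposite way. TXNL4A of the spliceosome and TBCA of tubulin folding differed by small amounts but also varied little within classes. TXNL4A had signals of 7.41, 7.80 and 8.27 (lowest, median and highest) before Spring2009 and 7.72, 8.09 and 8.42 from then on, a difference in means of 0.27 (1.21-fold). Of the 60 later cows 56 lay above the earlier median and 7 above all earlier cows, and 9 of the 10 later class means lay above every earlier one, the exception being winter2009/2010 at 7.90. TBCA had 8.94, 9.60 and 10.10 before, and 9.41, 9.89 and 10.46 after, a difference of 0.29 (1.22-fold). In this gene all 10 later class means were above every earlier one, but by little, since the lowest later class (Summer2011) had 9.71 and the highest earlier class (Spring2008) 9.69. Single cows overlapped in both genes.

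GABARAPL2, the ATG8 protein, had signals of 10.02, 10.33 and 10.92 (lowest, median and highest) before Spring2009 and 10.22, 10.63 and 10.96 from then on, a difference of 0.27 (1.21-fold). Here 57 of 60 later cows were above the earlier median, the most of the 6 genes, while only 2 were above all earlier cows. All 10 later class means were again above every earlier one (lowest later class 10.51 in Summer2011, highest earlier class 10.47 in Summer2006).

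POLE4 and C5H12orf57 had the larger differences among the rising genes. POLE4 had 7.78, 8.57 and 9.30 before Spring2009, and 8.30, 9.04 and 9.63 from then on, a difference of 0.46 (1.38-fold). Of the later cows 54 were above the earlier median and 10 above all earlier cows. Only 1 of 10 later class means exceeded every earlier class, because the 2 cows of autumn2005 had 9.01 and 9.30 and a class mean of 9.15. C5H12orf57 had 6.92, 8.05 and 9.07 before, and 7.31, 8.65 and 9.84 after, a difference of 0.60 (1.51-fold). It had the widest spread within classes, with a residual SD of 0.44 against 0.15 for TXNL4A, 0.15 for GABARAPL2, 0.17 for TBCA, 0.26 for POLE4, 0.31 for AUTS2 and a median of 0.25 over all transcripts. Its lowest class mean was 7.48 in Summer2005 and its highest 8.84 in Summer2011, and 50 of the later cows were above the earlier median.

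**Figure D1:**
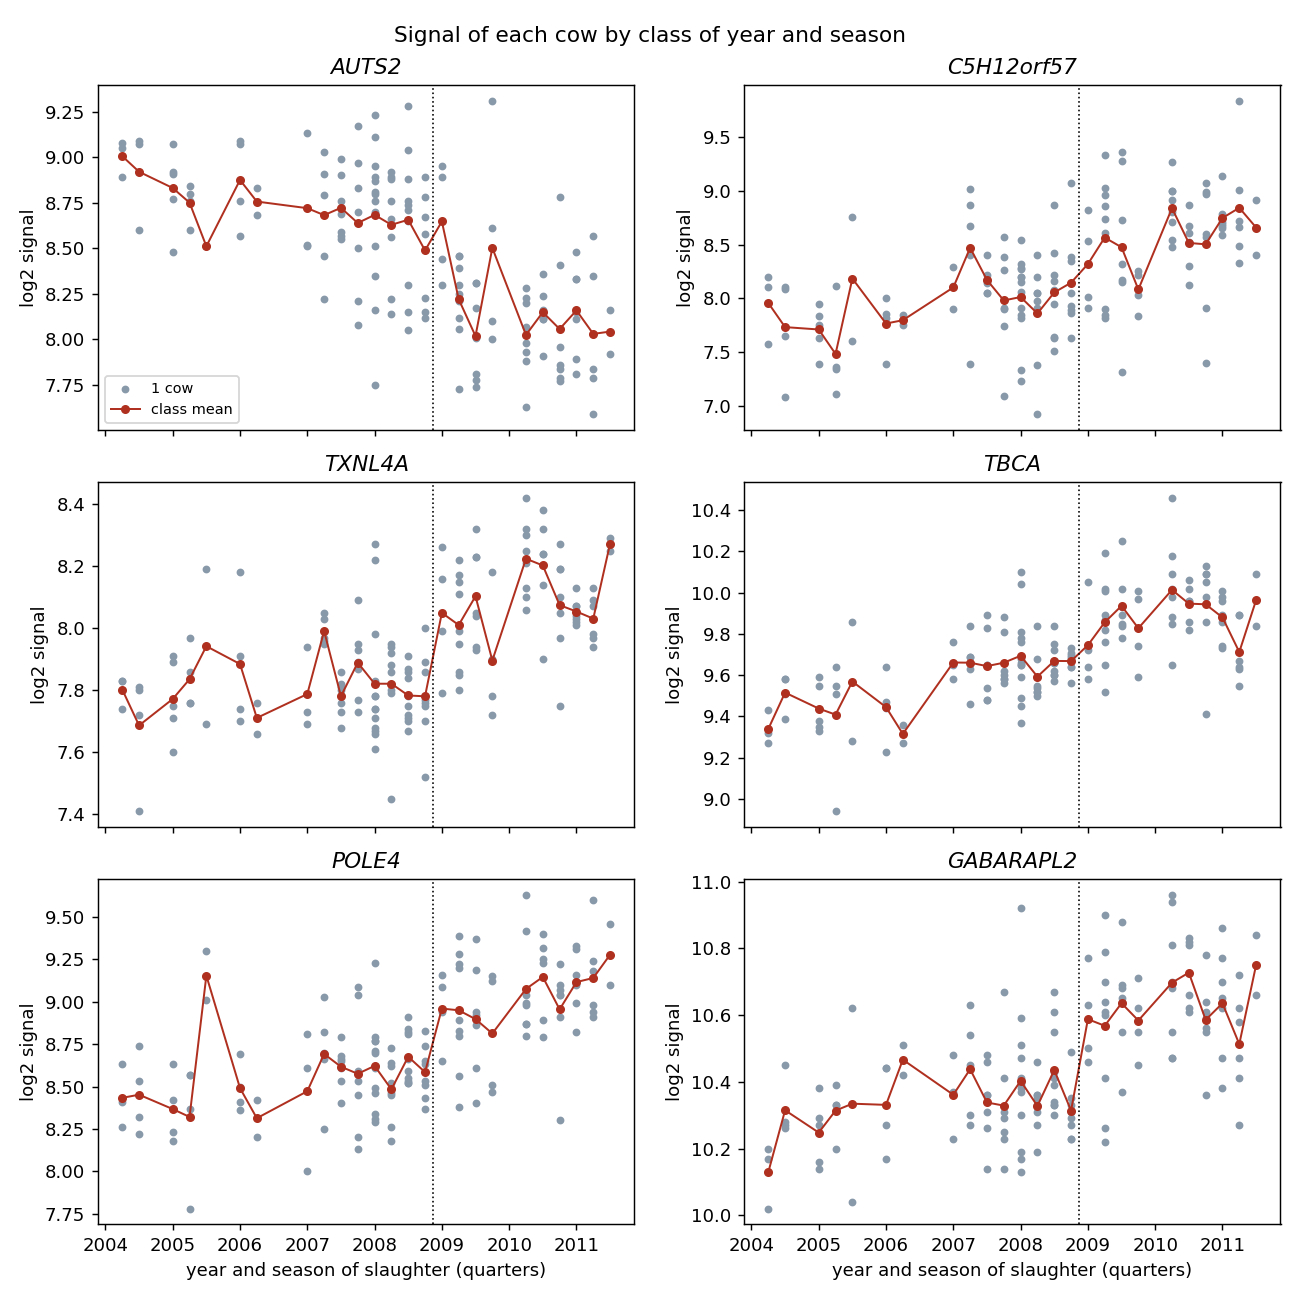
Log2 signal of each of the 145 cows (grey points) against the time of slaughter (year and season), 1 panel per gene, with the mean of each class (red points, joined); the dotted line stands between winter2008/2009 and Spring2009. AUTS2 is lower and the other 5 genes are higher to the right of the line, with overlapping cows in every panel, and the autumn2005 class of POLE4 stands apart at 9.15.

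For comparison with the whole array, a limma model with the class and the age of the cow was used for every transcript, and the F statistic compared the variance between classes with that within them. An adjusted p under 0.05 was reached by 11.6% of all transcripts. TXNL4A (F = 6.32), TBCA (6.22), POLE4 (6.07), AUTS2 (5.92) and GABARAPL2 (5.63) ranked 2, 3, 4, 5 and 12 by this statistic, and C5H12orf57 (4.07) ranked 110. The genes were chosen by differences between classes and between years, so these ranks and the slopes below are not independent of the choice. The slope on year passed the same threshold in 44.9% of all transcripts in either direction (25.7% rising, 19.2% falling). In log2 units per year the slopes were -0.14 (SE 0.014) for AUTS2, 0.16 (SE 0.019) for C5H12orf57 and 0.12 (SE 0.012) for POLE4. TBCA had 0.08 (SE 0.0079), GABARAPL2 0.07 (SE 0.0072) and TXNL4A 0.06 (SE 0.0076), while the median size of the slope over all transcripts was 0.023.

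**Figure D2:**
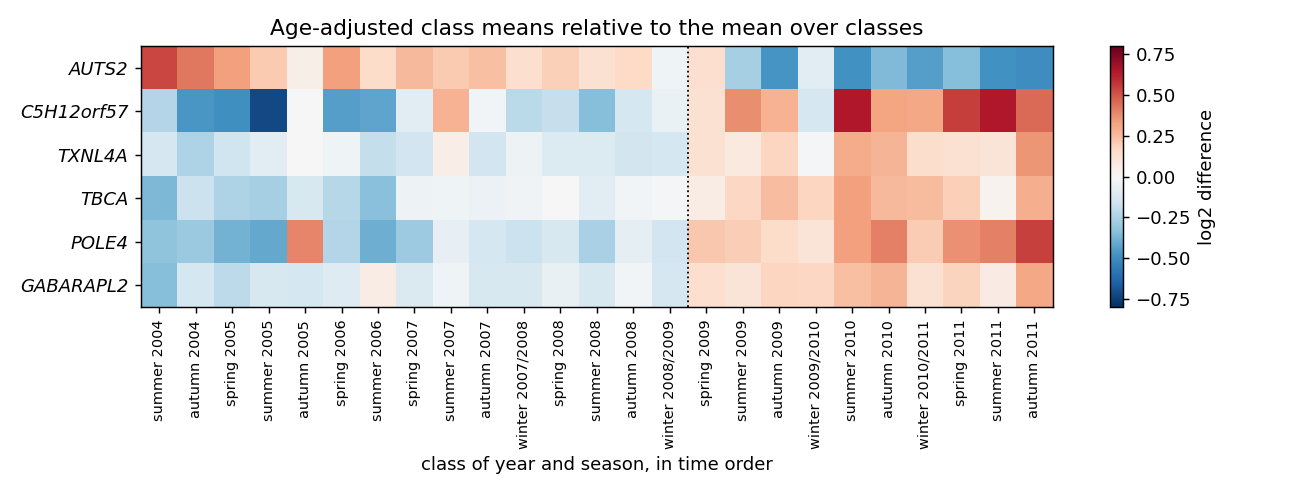
Age-adjusted class means of the 6 genes in log2 units, each gene relative to its mean over the 25 classes (columns, in time order), red above and blue below the mean. AUTS2 runs from red to blue and the other genes from blue to red, with the change of colour close to the dotted line before Spring2009.

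How much of this pattern a drift or a step could describe was measured on the sum of squares between the classes after adjustment for age, which made up between 44.5% (C5H12orf57) and 57.1% (TXNL4A) of the total sum of squares. A straight line over calendar time, in seasons, was set against the best single step, with a constant level before and after it. The best step was searched over all places between neighbouring classes, so it has more freedom than the line. Among the 1273 transcripts with class differences past the threshold, the line took a median of 52.2% and the step 63.9% of the sum of squares between classes, and the line took more than the step in 22.2% of them.

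The step took more than the line in AUTS2, TXNL4A, POLE4 and GABARAPL2. The widest gap was that of TXNL4A, the splicing factor, with 75.0% for the step and 52.6% for the line, a difference of -22.4 percentage points with a jackknife SE of 8.47 from leaving out each cow. This gap rested on the classes of 2008, without which the shares were 68.4% and 68.3%, a difference of -0.167. Its slope was 0.005 (SE 0.012) per year within the classes before Spring2009 and 0.04 (SE 0.026) within those from then on. Neither slope was clearly beyond its error. GABARAPL2 had 79.3% for the step and 66.9% for the line (difference -12.4, SE 9.01, but -3.89 without 2008 and -21.1 without classes of fewer than 4 cows), and its slopes were 0.03 (SE 0.011) before and 0.02 (SE 0.028) after.

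AUTS2 was described well by both, with 85.0% for the step and 77.0% for the line (difference -7.93, SE 9.00). Its best step led into Summer2009, and the slope was -0.07 (SE 0.023) per year in the 89 cows before Summer2009 and -0.08 (SE 0.055) in the 56 cows from then on. The later slope was larger than its SE but not clearly beyond its error. With the cut at Spring2009 it was -0.13 (SE 0.051), which includes the fall from Spring2009 to Summer2009. Line and step together took 91.6%. POLE4 had 76.7% for the step and 70.2% for the line (difference -6.49, SE 8.90), which turned to 76.9% and 80.2% without 2008, with slopes of 0.04 (SE 0.020) before and 0.11 (SE 0.047) after. For both genes the difference between the shapes was smaller than its error.

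In TBCA and C5H12orf57 the line took more. TBCA, the tubulin chaperone, had 77.4% for the line and 68.9% for the step (difference 8.52, SE 8.85, but 2.15 without classes of fewer than 4 cows, 2.95 without Spring2005 to autumn2005 and 4.26 without Summer2004 and autumn2004), with a slope of 0.07 (SE 0.012) before Spring2009 and of 0.01 (SE 0.032) after. The slope was thus the larger in the earlier years, a difference that was not tested. C5H12orf57 had 69.2% and 67.9% (difference 1.27, SE 11.3), which does not separate the shapes, and leaving out single cows moved the difference from -1.96 to 4.18. For the other genes the sign held when any single cow was left out.

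**Figure D3:**
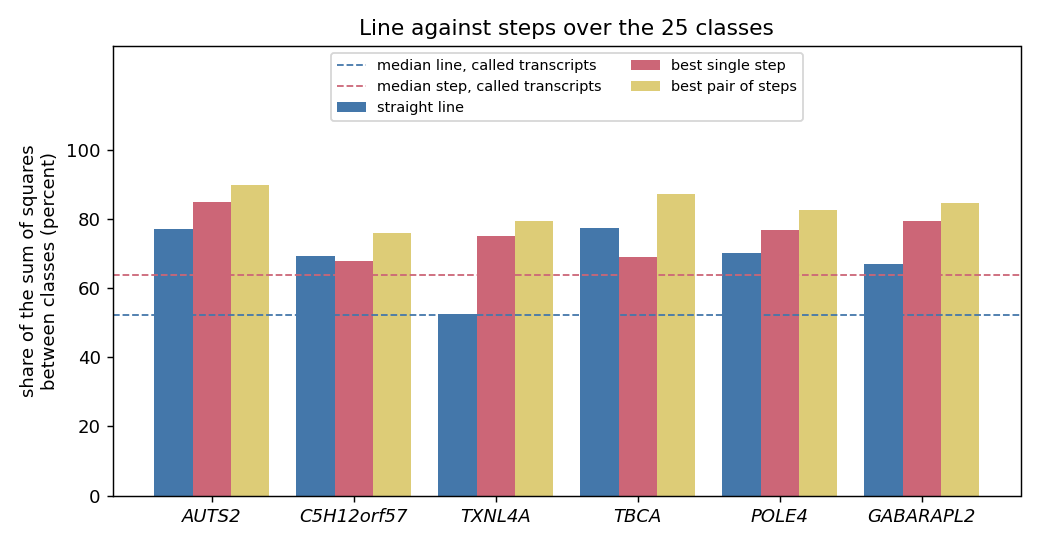
Share of the sum of squares between the 25 classes (percent, bars from 0) taken by a straight line over time, by the best single step and by the best pair of steps, for each gene; dashed lines give the medians of line (52.2%) and step (63.9%) over the 1273 transcripts with class differences. The step bar is higher than the line bar in 4 genes and lower in TBCA and C5H12orf57, and the gap is widest in TXNL4A.

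The place of the step was nearly the same in all genes. The best step led into Spring2009 in C5H12orf57, TXNL4A, TBCA, POLE4 and GABARAPL2 and into Summer2009 in AUTS2, with sizes of 0.60, 0.27, 0.30, 0.46, 0.27 and -0.58 in this order. Leaving out each of the 145 cows did not move it in AUTS2, TXNL4A, POLE4 and GABARAPL2, and moved it from Spring2009 to Summer2009 in 2 cases for C5H12orf57 and in 5 for TBCA. Steps into Spring2009 and Summer2009 took nearly equal shares in TBCA (68.9% and 68.7%) and in C5H12orf57 (67.9% and 67.1%). In TBCA the best step also led into Summer2009 without the age term, without classes of fewer than 4 cows and without some single years. In both genes it did so with the array-wide score (below) as a covariate. A step at this time was not particular to the 6 genes, since the best step led into Spring2009 or Summer2009 in 67.2% of the transcripts with class differences and in 33.4% of all transcripts. When all cows of 2009 were left out, which removes every class from Spring2009 to winter2009/2010, the best step led into Summer2010 in each gene. Summer2010 was then the first class after winter2008/2009, so this outcome cannot show whether the step moved.

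Changes between neighbouring classes are given as differences of age-adjusted means, with an SE that leaves out the error of the age adjustment. Between winter2008/2009 and Spring2009, these means changed by 0.27 (SE 0.09) in TXNL4A, 0.27 (SE 0.094) in GABARAPL2 and 0.37 (SE 0.16) in POLE4. The change there was smaller than its SE in C5H12orf57 (0.18, SE 0.27), TBCA (0.07, SE 0.10) and AUTS2 (0.17, SE 0.19). AUTS2 changed by -0.40 (SE 0.19) between Spring2009 and Summer2009. A further change was seen between winter2009/2010 and Summer2010, of 0.77 (SE 0.27) in C5H12orf57, 0.30 (SE 0.09) in TXNL4A and -0.39 (SE 0.19) in AUTS2, there being no class between them. In AUTS2 it followed a change of 0.38 (SE 0.19) the other way from autumn2009 to winter2009/2010. Into the same class C5H12orf57 changed by -0.41 (SE 0.28) and TXNL4A by -0.18 (SE 0.092), so that all 3 genes moved towards their earlier levels there. The 4 cows of winter2009/2010 had a mean age of 1547 days against 1321 over all cows, for which the changes above are already adjusted. Their signals without adjustment were 7.83, 8.03, 8.22 and 8.25 in C5H12orf57 and 7.72, 7.78, 7.90 and 8.18 in TXNL4A.

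The largest change between neighbouring classes in POLE4 lay elsewhere, with 0.80 (SE 0.23) from Summer2005 to autumn2005 and -0.63 (SE 0.23) from there to Spring2006, both resting on the 2 cows of autumn2005. C5H12orf57 also changed by 0.72 (SE 0.38) into autumn2005, and TBCA by 0.30 (SE 0.16) from Summer2006 to Spring2007. TXNL4A changed by 0.21 (SE 0.11) into Summer2007 and by -0.21 (SE 0.086) from there to autumn2007. Into autumn2011, which also held 2 cows, TBCA changed by 0.26 (SE 0.14), TXNL4A by 0.25 (SE 0.12) and GABARAPL2 by 0.25 (SE 0.13), and the other genes by less than their SE. Over the 24 pairs of neighbouring classes the direction was mixed, with 9 increases and 15 decreases in AUTS2, 12 and 12 in C5H12orf57, TXNL4A and POLE4, 13 and 11 in TBCA and 14 and 10 in GABARAPL2. The errors of these changes were large against a yearly slope of this size, so the counts do not separate a drift from a step. With a pair of steps, the shares rose to 89.8% in AUTS2, 87.2% in TBCA, 84.6% in GABARAPL2, 82.4% in POLE4, 79.4% in TXNL4A and 76.0% in C5H12orf57, and the earlier of both steps led into Spring2007 in TBCA, into Summer2005 in AUTS2 and GABARAPL2, into autumn2005 in C5H12orf57 and POLE4, and into Spring2009 in TXNL4A.

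The sample titles carry numbers whose meaning is not given in the labels, and these moved with the years. Of the 60 cows from Spring2009 on, 49 had numbers from 1 to 61 and 11 had numbers from 77 to 110, whereas 74 of the 85 earlier cows had numbers from 62 to 147 and 11 had numbers from 26 to 37. Among cows with numbers above 61, the mean of AUTS2 was 8.68 before and 8.53 from Spring2009 on, and among those up to 61 it was 8.83 and 8.08. For the other genes the pairs of means (before, after) were 8.01 and 8.24 above number 61 and 7.81 and 8.66 up to it for C5H12orf57, 7.83 and 7.99 against 7.77 and 8.11 for TXNL4A, and 9.62 and 9.75 against 9.44 and 9.92 for TBCA. POLE4 had 8.58 and 8.82 against 8.41 and 9.07, and GABARAPL2 10.36 and 10.51 against 10.25 and 10.65. In all 6 genes the difference ran the same way on both sides of number 61, but the genes correlate with each other, so these are not 6 separate results. Above number 61 the difference was smaller in each gene than the SD of the 11 later cows. This SD ran from 0.18 in GABARAPL2 to 0.42 in C5H12orf57. The sizes on both sides cannot be compared, since the 11 later cows with high numbers were all from Spring2009 to winter2009/2010, and 10 of the 11 earlier cows with low numbers were from Summer2004 to autumn2005. Summer2009 held 5 cows with low and 4 with high numbers, with means of 10.69 and 10.42 in GABARAPL2, 9.10 and 8.76 in POLE4, 8.77 and 8.31 in C5H12orf57, 9.94 and 9.75 in TBCA, 8.03 and 7.99 in TXNL4A and 8.15 and 8.31 in AUTS2. In log2 units the gap was thus widest in C5H12orf57, the gene with the widest spread within classes, and near 0 in TXNL4A. The gaps were not scaled by this spread. In winter2009/2010 the 1 cow with a low number and the mean of the 3 with high numbers were 8.00 and 8.67 in AUTS2, 8.22 and 8.04 in C5H12orf57, 7.90 and 7.89 in TXNL4A, 10.01 and 9.77 in TBCA, 9.12 and 8.71 in POLE4 and 10.71 and 10.54 in GABARAPL2. The part of the numbering in the differences was not tested.

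The age of the cow was the measure that the choice of the genes had not used. Within classes, the slope on age per 100 days did not pass the limma test in any of the 6 genes, nor in any other transcript (0% of 10986 at an adjusted p of 0.05, with 930 transcripts, or 8.47%, at an unadjusted p under 0.05). With the first component of the residuals as a covariate the array-wide count became 656. This component comes from the residuals of the same fit, so it leaves the slopes on age as they are and only lowers their error. The higher count is therefore no separate evidence of a relation to age. For AUTS2 the slope was 0.04 (95% confidence interval -0.01 to 0.09, adjusted p = 0.628). C5H12orf57 had 0.008 (-0.06 to 0.08, adjusted p = 0.930) and POLE4 -0.02 (-0.06 to 0.03, adjusted p = 0.764). TXNL4A had -0.01 (-0.04 to 0.01, adjusted p = 0.710), TBCA -0.01 (-0.04 to 0.02, adjusted p = 0.712) and GABARAPL2 -0.02 (-0.04 to 0.01, adjusted p = 0.631).

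Across the 25 class means, which share the arrays and the time trend, the 5 rising genes correlated with each other with r from 0.712 to 0.870 and with AUTS2 with r from -0.824 to -0.859. Among the 145 cows within classes, where differences between years are removed, r was lower, from 0.351 to 0.599 among the rising genes and from -0.0465 (C5H12orf57) to -0.440 (TBCA) with AUTS2. The highest values within classes were those of POLE4 with GABARAPL2 (0.599) and with C5H12orf57 (0.599), and after removal of the array-wide component described next they were 0.535 and 0.396, below the 0.593 of TBCA with GABARAPL2 and with POLE4. An array-wide component held 28.9% of the variance within classes, with CLK1, a kinase of splicing factors, and PNISR, a splicing-related protein, among its genes. Within classes this component correlated with C5H12orf57 at -0.608, POLE4 at -0.555, GABARAPL2 at -0.320, TXNL4A at -0.302, AUTS2 at -0.218 and TBCA at -0.078. CLK1 fell by 0.07 per year (SE 0.025, adjusted p = 0.0151 in limma) and PNISR fell by 0.10 (SE 0.025, adjusted p = 2.61e-04). To follow the component over classes, an array-wide score was formed by applying its gene weights to the signals themselves. The class mean of this score was lowest in Spring2009 (-0.87 SD of the arrays). With the score as a covariate, a choice made after seeing the data, the slopes on year were -0.15 for AUTS2, 0.13 for C5H12orf57, 0.10 for POLE4, 0.08 for TBCA, 0.06 for GABARAPL2 and 0.06 for TXNL4A, so that each kept its direction.

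**Figure D4:**
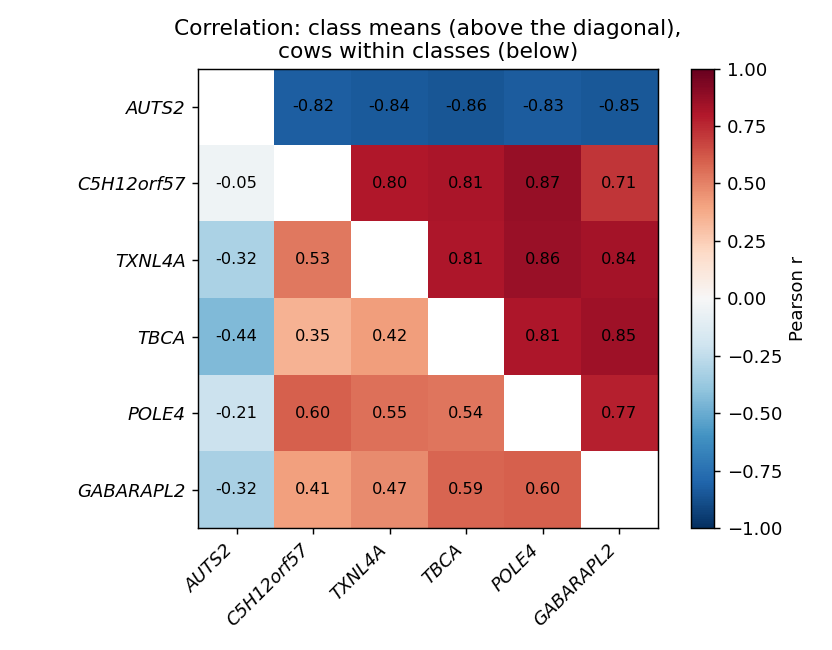
Pearson correlation of the 6 genes with each other, over the 25 class means above the diagonal and over the 145 cows within classes below it, with blue for negative and red for positive values. AUTS2 is negative against every other gene in both parts, and the values below the diagonal are smaller in size.

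The platform holds another AUTS2 transcript with a mean signal of 8.05. Its classes did not differ past the threshold (F = 1.74, rank 1957, adjusted p = 0.148 in limma), and it fell by 0.02 per year (SE 0.0097, adjusted p = 0.0447), against 0.14 for the transcript described above. Class means ran from 8.36 in Spring2009 to 7.73 in winter2010/2011. Both transcripts correlated at 0.563 within classes and at 0.561 over class means. Thus the fall of AUTS2 differed in size between both sets of probes.

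The transcripts most alike in their class means (r over 25 classes) came from varied functions. For AUTS2 these were MIR2439 (0.963), the orphan receptor gene GPR21 (0.962) and MIR2313 (0.950). TBCA was followed by MRPL13 of the mitochondrial ribosome (0.965), the acyl-CoA binding protein DBI (0.959) and the general transcription factor subunit GTF2A2 (0.957). GABARAPL2 was followed by CHRAC1 (0.949) and TAF12 (0.938), both histone-fold proteins, and the exosome subunit EXOSC1 (0.928). ERH, a small nuclear protein, stood near both POLE4 (0.943) and TXNL4A (0.930). POLE4 was further followed by LOC619131 (0.942) and OST4 of N-glycosylation (0.940), and TXNL4A by the histone variant MACROH2A1 (0.931) and the Mediator subunit MED31 (0.927). C5H12orf57 had lower values, with LOC784931 (0.920), LOC100298410 (0.918) and ATP5F1E of ATP synthase (0.917).

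The partner genes of the 6 genes were followed in lists of their complexes and pathways, with the limma slope on year and the adjusted p over all transcripts. For tubulin folding, around TBCA, 24 of 31 genes were measured, 16 rose (66.7%, against 25.7% of all transcripts), none fell (against 19.2%) and 8 did not pass the test, with a median slope of 0.03 per year against 0.0026 over all transcripts. The largest were subunits of prefoldin, which hands new tubulin and actin chains to the chaperonin. PFDN1 rose by 0.08 (SE 0.010, adjusted p = 3.62e-11), PFDN5 by 0.07 (SE 0.011, adjusted p = 1.88e-08) and PFDN2 by 0.06 (SE 0.0073, adjusted p = 1.61e-12). Under every alternative run, including the median-centring of each array, 12 to 16 genes of this list rose and at most 1 fell.

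For the U5 and tri-snRNP proteins around TXNL4A, 28 of 31 were measured, 16 rose (57.1%, against 25.7% of all transcripts) and 3 fell (10.7%, against 19.2%), with a median slope of 0.03. SNRPD3, a core Sm protein of spliceosomal particles, rose by 0.08 (SE 0.016, adjusted p = 6.63e-06), LSM3, an Sm-like protein of U6, by 0.08 (SE 0.010, adjusted p = 2.72e-11), and the Sm protein SNRPG by 0.08 (SE 0.011, adjusted p = 2.66e-09). The 3 that fell, named after their values were seen, were PRPF3 by 0.05, the helicase SNRNP200 by 0.02 and the large scaffold protein PRPF8 by 0.02. The other 9 measured proteins, among them EFTUD2 (-0.0054, adjusted p = 0.614), PRPF6 (0.01, adjusted p = 0.0946) and SNRPF (0.01, adjusted p = 0.495), did not pass the test. Most of the rising genes were Sm and Sm-like proteins. Of the U5 proteins other than these, CD2BP2 rose by 0.03 (SE 0.011, adjusted p = 0.0147) and PRPF8 and SNRNP200 fell. EFTUD2, PRPF6, SNRNP40 (adjusted p = 0.153) and DDX23 (adjusted p = 0.056) did not pass. The rise of the list is thus not a rise of the U5 proteins as a whole.

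In the other lists the shares were near or below those of all transcripts (25.7% rising, 19.2% falling), so the genes named from them are single values and no result about the list. Of the DNA polymerase epsilon and histone-fold list, 13 of 19 genes were measured, and 4 rose (30.8%) and 1 fell (7.69%), with a median slope of 0.0089. CHRAC1, a histone-fold partner of POLE3, rose by 0.06 (SE 0.0077, adjusted p = 6.41e-11) and the sliding clamp PCNA by 0.05 (SE 0.016, adjusted p = 0.00490), while the primase subunit PRIM1 fell by 0.05 (SE 0.021, adjusted p = 0.0371). Under 6 of 16 alternatives no gene of this list fell. POLE3, the direct partner of POLE4 and named after its values were seen, rose by 0.04 (SE 0.012, adjusted p = 0.00980).

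Of the variant Polycomb list around AUTS2, 15 of 20 genes were measured, and 4 rose (26.7%) and 3 fell (20.0%), with a median slope of -0.0028. CSNK2B, the regulatory subunit of casein kinase CK2, rose by 0.05 (SE 0.0086, adjusted p = 2.63e-06) and PCGF1 by 0.04 (SE 0.0092, adjusted p = 2.87e-05), and PCGF5, the Polycomb ring finger protein found with AUTS2 in human cells, fell by 0.04 (SE 0.016, adjusted p = 0.0197). For the ATG8 conjugation list around GABARAPL2, 23 of 27 were measured, and 3 rose and 3 fell (13.0% each), with a median slope of -0.01. WIPI2, which recruits the conjugation machinery to membranes, rose by 0.04 (SE 0.010, adjusted p = 0.00107), NSF of membrane fusion fell by 0.03 (SE 0.013, adjusted p = 0.0394) and the kinase ULK2 by 0.03 (SE 0.0060, adjusted p = 1.36e-04). GABARAP, the close relative of GABARAPL2 and named after its values were seen, rose by 0.02 (SE 0.0036, adjusted p = 2.23e-06), whereas the relatives GABARAPL1 (-0.01, adjusted p = 0.0806) and MAP1LC3A (-0.01, adjusted p = 0.245) did not pass the test.

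**Figure D5:**
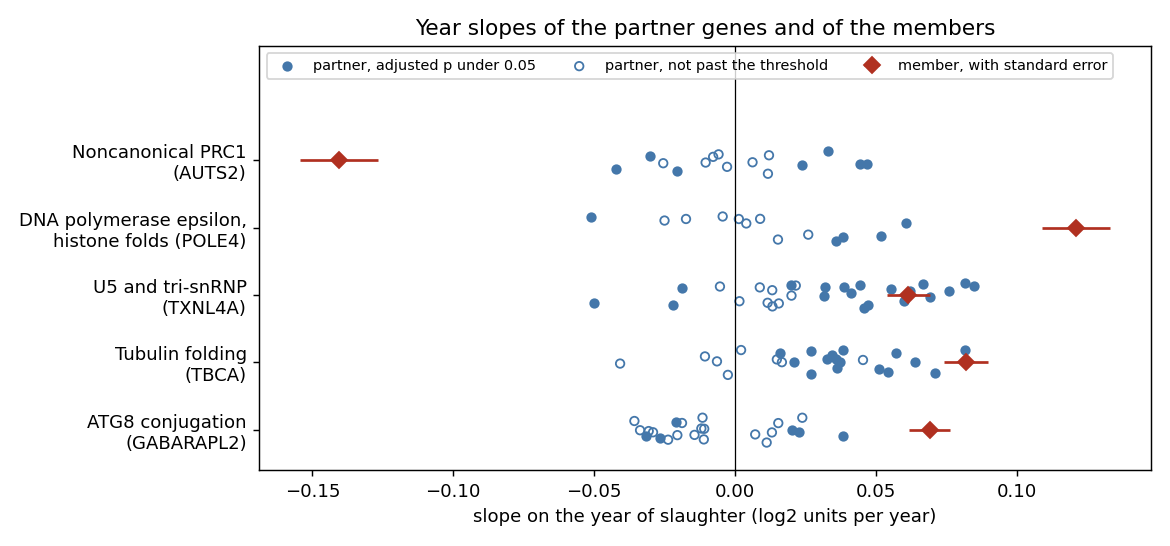
Slope on the year of slaughter (log2 units per year) of each measured partner gene, by list, with filled points for an adjusted p under 0.05 in limma and open points for the rest; red diamonds with SE are the genes for which the lists were made. AUTS2 at -0.14 and POLE4 at 0.12 lie beyond all genes of their lists, and TXNL4A at 0.06 lies within its list.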

How the data were processed

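RNA of 145 adrenal cortices was measured on the Bovine Gene array, a custom Affymetrix GeneChip. The deposited log2 values had been obtained by the authors with RMA (Affymetrix Expression Console), a method that corrects background, quantile-normalizes arrays and summarises probes, and had been limited to detected transcripts. Another 2 columns held no values and were not used. Of 10986 transcripts, 8863 had 1 symbol in the platform annotation, 377 several and 1746 none, and only the first were named. Classes and ages came from the sample labels.

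Transcripts were fitted in limma 3.58.1 (R 4.3.3) with class and age per 100 days (119 residual degrees of freedom), or with year, season and age and the class as a random block (statmod 1.5.0), and p-values were adjusted by Benjamini-Hochberg over all transcripts. The sire and dam terms of the study's model were not fitted. Shapes were computed on age-adjusted class sums of squares. The scripts were tested on simulated data. The 6 genes and all lists were chosen with earlier results of these data known. Named were the 6 genes, the 3 most alike transcripts of each, up to 3 called genes with the largest slope per pathway list, the 2 highest and any called genes per marker list, CLK1, PNISR and other transcripts of the 6 symbols. The number of arrays limits the precision. Plots were drawn with matplotlib 3.10.9.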

Additional observations from a re-analysis of the deposited data

Results flagged for a closer look

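In 6 of 114 combinations of gene and class with 4 to 10 cows, 1 cow lay far from the others by Dixon's criterion, which chance meets in about 1 of 20 groups. The highest cow of Spring2011 had a C5H12orf57 signal of 9.14 (next 8.78, n = 7), and the lowest cow of Summer2008 a TXNL4A signal of 7.45 (next 7.79, n = 8). In winter2010/2011 1 cow was the lowest in both TBCA, with 9.41 (next 9.86, n = 7), and POLE4, with 8.30 (next 8.91, n = 7). The same cow was also the lowest of its class in C5H12orf57 (7.40), TXNL4A (7.75) and GABARAPL2 (10.36) and the highest in AUTS2 (8.78). GABARAPL2 had a highest cow of 10.45 in autumn2004 (next 10.28, n = 4) and of 10.49 in winter2008/2009 (next 10.35, n = 8).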

How the results depend on the processing

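The count of transcripts with class differences was 1273 and became 5744 with the first component of the residuals as a covariate, 2536 with the array-wide score as a covariate (chosen after seeing the data), 583 without 2010 and 714 without 2011. For age the count of 0 became 656 with the first component, and 1 both without classes of fewer than 4 cows and with year and season as additive factors. The counts of 5744 and 656 follow from a smaller error alone. The first component was taken from the residuals of the same fit and cannot change its class differences or slopes on age. Calls of a year slope ran from 3673 (without 2011) to 5102 against 4937. No slope of the 6 genes changed sign, the ranges being -0.20 to -0.13 for AUTS2, 0.13 to 0.19 for C5H12orf57, 0.05 to 0.09 for TXNL4A, 0.07 to 0.10 for TBCA, 0.10 to 0.17 for POLE4 and 0.06 to 0.09 for GABARAPL2. The difference between line and step in C5H12orf57 (1.27 points) was -1.72 with the array-wide score, -4.69 without Spring2005 to autumn2005, -1.14 without Spring2007 to winter2007/2008, 12.8 without 2008, -3.07 without 2009, -1.79 without 2011 and -1.96 to 4.18 without single cows. Without 2008 it was -0.167 in TXNL4A and 3.33 in POLE4, and the cause was not tested. Without single cows it ran from -10.2 to -5.73 in AUTS2, -26.1 to -20.2 in TXNL4A, 5.53 to 10.5 in TBCA, -9.13 to -3.99 in POLE4 and -15.9 to -10.4 in GABARAPL2. No paired analysis was possible because each cow belonged to 1 class only. Background correction and the slide could not be varied, since RMA values were used.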
